A study of Homo sapiens with 12 samples.

Results

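Cytoplasmic ribosomal protein mRNAs were followed through 4 lists of dSpCas9 eCLIP peaks. The members were the 79 protein-coding genes of GENCODE version 44 whose symbols name a cytoplasmic ribosomal protein, 46 of the large and 33 of the small subunit, of 20046 protein-coding genes in all. RPS6K kinases, pseudogenes and paralogs with an L1 suffix were left out. A peak was counted for a member when 1 nt or more of it lay in an exon of the gene, strand respected, which gave 845 of the 18128 peaks in the 4 lists. Members were picked by gene name and not by peak value, but the group was chosen with earlier results of these data known. The paper lists cytoplasmic translation among the processes enriched in its bound RNAs.

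eCLIP cross-links proteins to RNA in living cells with UV light, recovers 1 protein by immunoprecipitation (IP) and sequences the RNA that comes with it. The cells were Lenti-X 293T, a HEK 293T line of human embryonic kidney cells, transfected with a plasmid for V5-dSpCas9, for 3xFLAG-dSpCas9, or with the empty vector, and no guide RNA was part of these 3 conditions. dSpCas9 is Streptococcus pyogenes Cas9 without nuclease activity, expressed here in the cytoplasm. The 12 libraries were 2 IP, 2 size-matched input (no IP, from the dSpCas9 cells) and 2 empty vector IP libraries for each antibody, and all cells received 400 mJ/cm2 of UV 2 times. The membrane was cut from 115 kDa upward. Each list set the 2 IPs of 1 antibody against 1 kind of control, and the lists are called V5 over input, V5 over empty vector, FLAG over input and FLAG over empty vector. A list holds 1 value per peak for its 2 merged replicates, so no replicate error and no test could be computed, and the depth of the libraries is unknown. The lists hold peaks only, so the RNA level of a gene was not measured here and the cell type could not be checked against its markers. An mRNA with few molecules and one that was seldom cross-linked cannot be told apart.

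Ribosomal proteins are the structural proteins of the 2 ribosomal subunits, and each is made in an amount that matches the ribosomal RNA. Their mRNAs are short, abundant in dividing cells, and begin with a 5′ terminal oligopyrimidine (TOP) tract through which mTOR signalling controls their translation. Human ribosomal protein genes have many processed pseudogenes, intronless copies of the spliced mRNA elsewhere in the genome.

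The stretches below are the coding sequence of 3 mRNAs that all 4 lists shared, and they are shown because the peaks of the lists met there. An interval was kept when at least 50% of the V5 interval was covered by the FLAG interval, each being the overlap of the 2 lists of its antibody. Intervals up to 50 nt apart on the spliced mRNA were joined into 1 stretch. Sequences run 5′ to 3′ on the spliced mRNA (hg38), with T for U, and capitals mark bases inside a shared interval.
RPS12: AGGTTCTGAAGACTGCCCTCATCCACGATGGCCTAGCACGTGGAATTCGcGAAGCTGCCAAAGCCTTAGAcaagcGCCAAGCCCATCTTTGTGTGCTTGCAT
RPL15: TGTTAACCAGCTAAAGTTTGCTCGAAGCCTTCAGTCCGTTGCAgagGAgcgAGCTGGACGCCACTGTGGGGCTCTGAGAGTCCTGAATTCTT
RPL37A: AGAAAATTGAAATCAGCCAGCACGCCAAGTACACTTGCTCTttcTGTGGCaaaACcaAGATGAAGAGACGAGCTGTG

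The RPS12 stretch of 102 nt is read from chr6:132815016-132815088 and chr6:132816461-132816489, plus strand, with an exon junction after base 73 of the printed sequence. For RPL15 the pieces are chr3:23918531-23918576 and chr3:23919196-23919241, plus strand, with the junction after base 46. The RPL37A stretch joins chr2:216499346-216499398 and chr2:216499949-216499972, plus strand, after base 53. All 3 stretches are coding sequence. They run over codons 20 to 54 in RPS12, 88 to 119 in RPL15 and 27 to 52 in RPL37A.

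Ribosomal protein genes had peaks more often than protein-coding genes as a whole in every list, although 30 of the 79 had none. In V5 over input 45 members (57.0%) had a peak, against 13.6% of all protein-coding genes. V5 over empty vector held 41 members (51.9%), against 6.78% of all genes. FLAG over input held 37 (46.8%), against 13.2%. FLAG over empty vector held 16 (20.3%), against 4.96%. An interval shared by all 4 lists lay in 14 members (17.7%), against 2.07% of all genes. With only peaks of a log2 enrichment of at least 4 counted, 17, 18, 19 and 10 members remained in these lists, in the order given, which is 21.5%, 22.8%, 24.1% and 12.7% of the 79. The background for all genes was then 5.04%, 2.27%, 4.97% and 1.58%. The RNA level of a gene, which bears on whether its peaks can be called, was not measured, and its part in these shares was not tested.

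**Figure D1:**
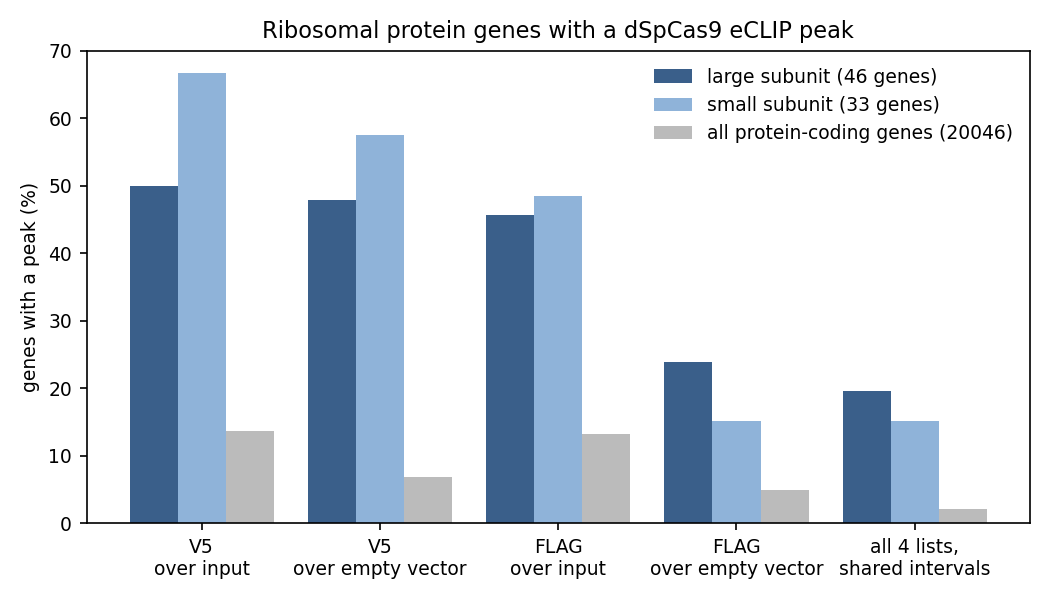
Bars show the percentage of large subunit, small subunit and all protein-coding genes with a peak in each list, and with an interval shared by all 4 lists. Both subunits stand above the grey bars in each of the 5 groups, and the small subunit bar is the higher one in 3 of the 4 lists and the lower one in FLAG over empty vector.

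Which subunit had the larger share of genes with a peak depended on the list and on the threshold. A peak in at least 1 list was found for 25 of 46 large subunit genes (54.4%) and 24 of 33 small subunit genes (72.7%). The large and small subunit counts were 23 and 22 genes in V5 over input, 22 and 19 in V5 over empty vector, 21 and 16 in FLAG over input, and 11 and 5 in FLAG over empty vector. Thus the share was higher for the small subunit in V5 over input (66.7% against 50.0%) and lower in FLAG over empty vector (15.2% against 23.9%). With peaks of a log2 enrichment of at least 4 only, the small subunit share was the lower in every list and in any list, with 7 of 33 small and 10 of 46 large subunit genes in V5 over input, and 11 of 33 and 17 of 46 in any list. Shared intervals lay in 9 large subunit genes (19.6%), with 38 intervals, and in 5 small subunit genes (15.2%), with 17 intervals. The median over genes of the highest log2 enrichment was higher for the large subunit in every list, at 3.93 against 3.69 in V5 over input, 4.06 against 3.73 in V5 over empty vector, 4.34 against 3.79 in FLAG over input and 4.05 against 4.00 in FLAG over empty vector. No test was made between subunits.

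The 30 members without a peak in any list were 21 of the large and 9 of the small subunit. The large subunit genes were RPL5, RPL6, RPL7, RPL7A, RPL9, RPL11, RPL17, RPL19, RPL22, RPL23, RPL23A, RPL26, RPL30, RPL32, RPL34, RPL35, RPL36A, RPL38, RPL39, RPL41 and RPLP2. RPL5 and RPL11 form, with the 5S rRNA, the particle that binds MDM2 when ribosome assembly is disturbed, and RPLP2 is an acidic protein of the ribosomal stalk. The small subunit genes were RPS9, RPS15A, RPS24, RPS25, RPS26, RPS27, RPS29, RPS4Y1 and RPS4Y2, of which the last pair are Y-linked copies of RPS4X. Whether these cells carry a Y chromosome was not checked here, and the pair stay in all counts of members. At the other end, 15 members had a peak in all 4 lists, 17 in 3, 11 in 2 and 6 in 1. Of the 6, RPS4X and RPS6 were found only in V5 over input, RPL24, RPS13 and RPS27A only in V5 over empty vector, and RPL31 only in FLAG over input. Their peaks reached a log2 enrichment of 3.01 (RPS27A) to 3.76 (RPL31), where the lowest value in the lists is 3.

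By their highest peak, members with peaks had medians within 0.1 of all genes in the V5 lists and higher medians in the FLAG lists. The median over members of the highest log2 enrichment was 3.73 in V5 over input (45 genes, range 3.04 to 5.79), where it was 3.78 over all 2717 protein-coding genes with a peak. It was 3.78 against 3.72 in V5 over empty vector, 4.05 against 3.77 in FLAG over input and 4.03 against 3.68 in FLAG over empty vector. Members had more peaks per gene than other genes in every list, and the part of this in the highest values was not tested. Over single peaks the member medians were 3.65, 3.69, 3.76 and 3.72 in V5 over input, V5 over empty vector, FLAG over input and FLAG over empty vector, against 3.60, 3.62, 3.61 and 3.58 for peaks of other mRNAs, so that the gap was smaller in the FLAG lists. In the 36 members with a peak in both input lists, the FLAG value minus the V5 value had a median of -0.03, from -1.44 in RPL15 to 1.21 in RPSA, the laminin receptor protein of the small subunit. FLAG was the higher in 16 of the 36. Across these 36 genes Pearson's r was 0.76 and Spearman's rho 0.81, a description over genes whose peaks come from the same libraries.

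**Figure D2:**
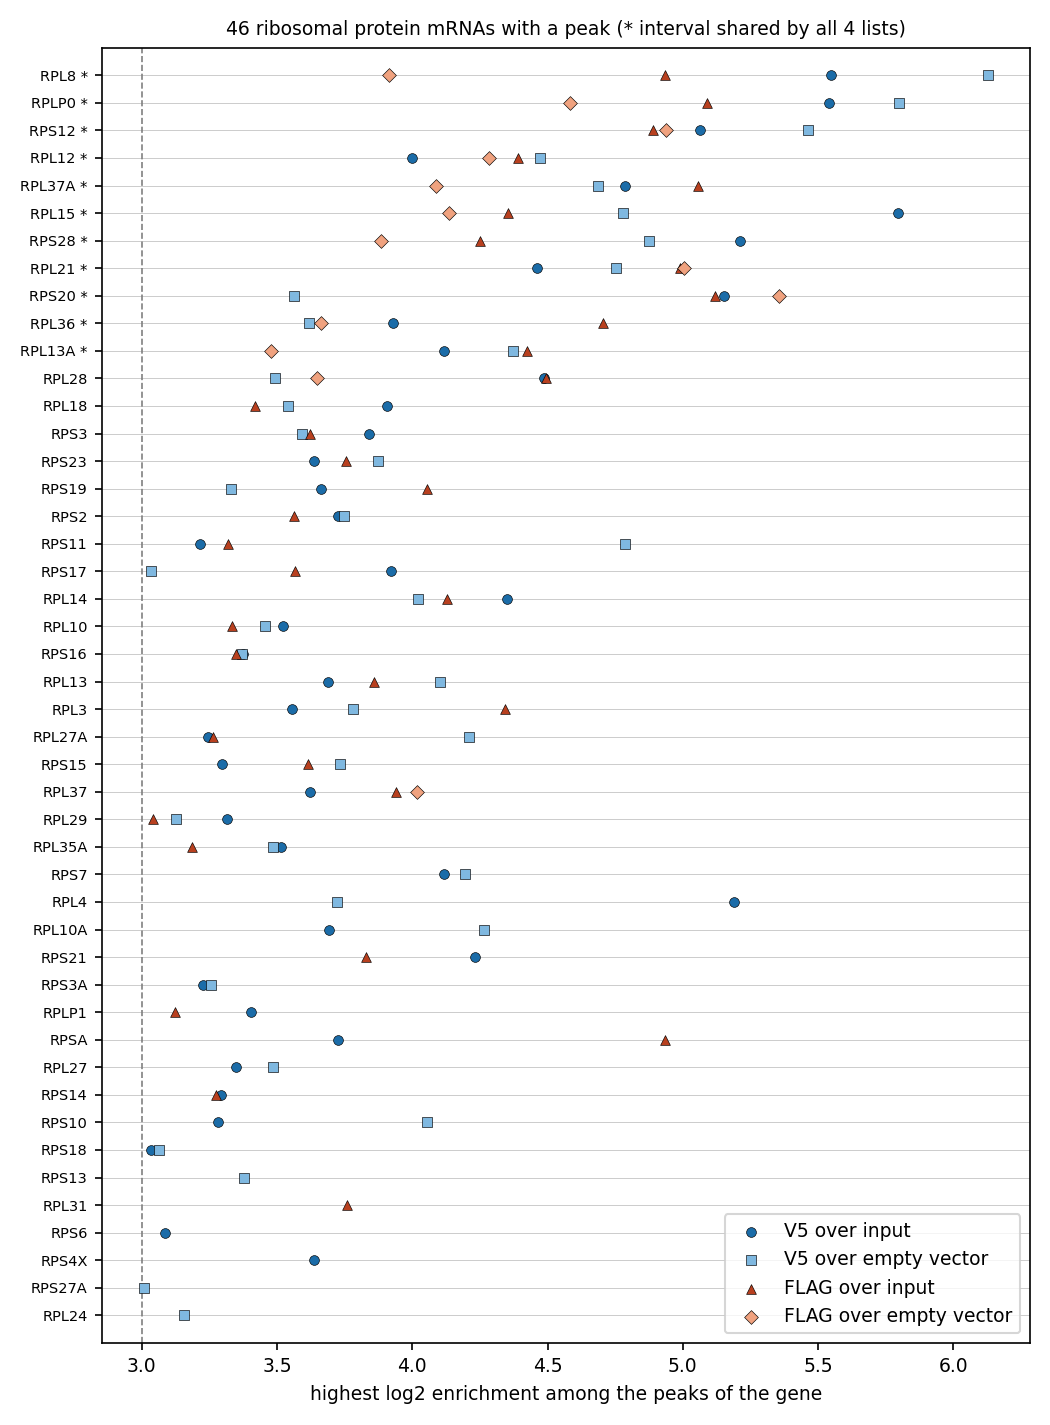
Each row is 1 of 46 members with a peak, each symbol its highest log2 enrichment in 1 list, and the dashed line the lowest value in the lists (3). The 11 members shown with an interval shared by all 4 lists (asterisks) fill the top rows, with values from 3.48 (RPL13A) to 6.13 (RPL8).

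Among large subunit genes with a shared interval, RPL8, RPLP0 and RPL12 had the most peaks of all members, with 99, 82 and 48 over the 4 lists. RPL8 is a large subunit protein next to the peptidyl transferase centre, and RPLP0 and RPL12 form the base of the stalk that recruits elongation factors. The highest log2 enrichment of RPL8 was 5.55 in V5 over input, 6.13 in V5 over empty vector, 4.93 in FLAG over input and 3.915 in FLAG over empty vector. That of RPLP0 was 5.54, 5.80, 5.09 and 4.58 in the same order, and that of RPL12 was 4.00, 4.47, 4.39 and 4.28. RPL8 and RPLP0 were thus highest in the V5 lists, and RPL12 differed little between lists. By number of peaks RPL8 took rank 3 of 2717 genes in V5 over input and rank 2 of 2639 in FLAG over input, with 29 and 32 peaks.

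RPL15 held the highest member value in V5 over input. It reached 5.79 there, 4.78 in V5 over empty vector, 4.35 in FLAG over input and 4.13 in FLAG over empty vector. The first was rank 26 of 2717 genes, ahead of RPL8 at rank 41 and RPLP0 at rank 43. Each V5 value of RPL15 was above each FLAG value, but these are maxima over the whole gene. In its printed stretch the highest values were 4.14, 3.78, 4.35 and 4.13 in the same order of lists. There FLAG was the higher over each kind of control. In V5 over empty vector RPL8 was at rank 7 and RPLP0 at rank 13 of 1360 genes.

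Other large subunit genes were lower or were led by FLAG. RPL37A reached 4.785 in V5 over input, 4.685 in V5 over empty vector, 5.06 in FLAG over input and 4.09 in FLAG over empty vector. RPL21 reached 4.46, 4.75, 4.99 and 5.00 in that order, with both FLAG values above both V5 values over the whole gene. In its shared stretch the highest values were 4.04, 4.75, 4.33 and 4.77. RPL36 reached 3.93, 3.62, 4.705 and 3.66. RPL13A, which also acts outside the ribosome in interferon-driven silencing of inflammatory mRNAs, reached 4.12, 4.37, 4.425 and 3.48.

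Of the small subunit genes, RPS20 and RPS12 were highest in FLAG over empty vector, and RPS20 in FLAG over input. RPS20 reached 5.15 in V5 over input, 3.56 in V5 over empty vector, 5.12 in FLAG over input and 5.36 in FLAG over empty vector, so that its V5 over empty vector value stood apart from the others. Its 2 peaks in V5 over empty vector had a −log10 p of 3.35 and 3.72, near the lowest in the lists (3.01). In FLAG over input RPS20, RPLP0 and RPL37A were the leading members at ranks 136, 145 and 158 of 2639 genes. In FLAG over empty vector RPS20, RPL21 and RPS12 were at ranks 15, 44 and 54 of 995. RPS12 reached 5.065, 5.46, 4.89 and 4.94 in the order of lists used above. RPS28, a protein near the exit of the mRNA channel, reached 5.21, 4.87, 4.25 and 3.89, with both V5 values above both FLAG values over the whole gene. In its shared stretch the highest values were 3.58, 3.84, 4.25 and 3.46, with FLAG over input the highest. Over the 14 genes, FLAG over empty vector gave the lowest of the 4 gene maxima in 9 and V5 over empty vector the highest in 6.

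Peaks over input were kept over the empty vector IP more often for ribosomal protein mRNAs with V5 than with FLAG. Of the 45 members with a V5 over input peak, 38 (84.4%) also had one in V5 over empty vector, against 44.6% of all protein-coding genes. With FLAG, 16 of 37 members (43.2%) had both, against 35.9% of all genes. Peak by peak, 210 of 283 member peaks in V5 over input (74.2%) overlapped a V5 over empty vector peak, against 36.0% of all peaks. For FLAG it was 82 of 234 (35.0%), against 27.9%. Member peaks made up 4.28% of all peaks in V5 over input and 7.95% (239 of 3005) in V5 over empty vector. The share was 3.57% in FLAG over input and 4.53% (89 of 1964) in FLAG over empty vector. Members have more peaks per gene than other genes, which gives each member more chances to have both kinds, and the part of this in the gene shares was not tested. The 2 lists of 1 antibody use the same IP libraries, so they are not independent. RPL28, a large subunit protein, had a peak in all 4 lists but no shared interval. Its 7 peaks all lay in the 3′ UTR of the canonical transcript. The FLAG over empty vector peak at chr19:55390095-55390149 had no V5 partner, and the V5 over empty vector peak at chr19:55390673-55390753 overlapped a peak in both input lists.

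Ribosomal protein peaks lay in the coding sequence (CDS), where those of other mRNAs were often in the 3′ UTR. Regions were read from the canonical transcript, and a peak could touch several. In V5 over input 243 of 283 member peaks (85.9%, 95% Wilson interval 81.3 to 89.5) touched the CDS, against 54.0% (52.7 to 55.2) of 6148 peaks on other mRNAs. The member shares were 88.7%, 86.8% and 84.3% in V5 over empty vector, FLAG over input and FLAG over empty vector, against 63.7%, 53.1% and 49.1%. The 3′ UTR was touched by 4.95%, 3.35%, 5.13% and 11.2% of member peaks over the 4 lists, against 40.7%, 31.6%, 42.6% and 49.8% for other mRNAs. For the 5′ UTR the shares were nearer to each other, at 12.01%, 10.04% and 8.55% in the first 3 lists against 12.5%, 13.3% and 10.2%. In FLAG over empty vector 0 of 89 member peaks touched it (upper Wilson limit 4.14%), against 5.28%. Another 5 of the 89 lay in intron of the canonical transcript, in the longer RPLP0 exon described below. Whether that exon is 5′ UTR in its own transcripts was not examined. The Wilson intervals count peaks, and peaks of 1 mRNA are not independent.

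**Figure D3:**
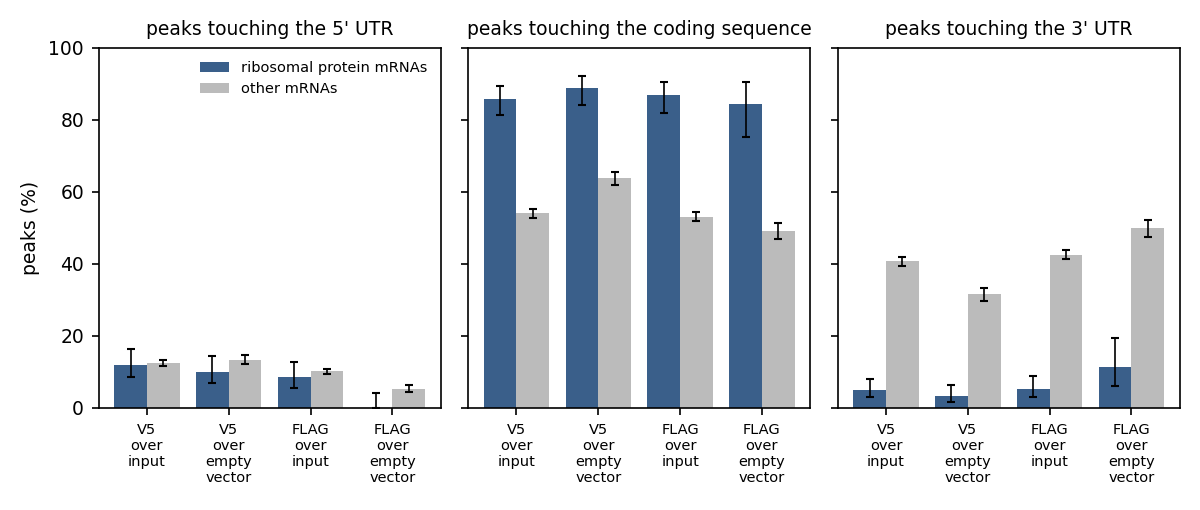
Bars show the percentage of peaks that touch the 5′ UTR, coding sequence or 3′ UTR in each list, for ribosomal protein mRNAs and for other mRNAs, with 95% Wilson intervals over peaks. The coding share of ribosomal protein mRNAs is between 84.3% and 88.7%, above the other mRNAs in all 4 lists, and their 3′ UTR share is below.

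The shares of peaks did not follow the length of the regions. Over all members the canonical mRNAs are 40.1% CDS and 55.7% 3′ UTR, since a few of the annotated 3′ UTRs are long, while the median member has 471 nt of CDS, 41 nt of 5′ UTR and 112 nt of 3′ UTR. Other mRNAs are 47.2% CDS and 47.4% 3′ UTR by length. In the members with a V5 over input peak, peaks covered 26.0% of CDS bases, 25.1% of 5′ UTR bases and 1.5% of 3′ UTR bases. In FLAG over input the values were 26.2%, 17.6% and 1.22%. Over empty vector the 5′ UTR was covered less than the CDS, with 24.5% of CDS, 12.2% of 5′ UTR and 0.98% of 3′ UTR bases in V5 and 18.95%, 0% and 1.95% in FLAG. These values are for canonical transcripts and leave out the longer RPLP0 exon described below. Within the first 150 nt of the 3′ UTR the cover was 6.71% in V5 over input and 1.90% in FLAG over input, still below that of the CDS. Whether the long annotated 3′ UTRs are used in these cells was not measured.

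Along the CDS the middle part had the highest cover, shared with the second part in 1 list. In FLAG over input, peaks covered 18.2%, 26.8%, 38.7%, 32.8% and 14.2% of the bases in the 5 equal parts of the CDS from start to stop, over 37 genes. FLAG over empty vector gave 14.9%, 23.2%, 31.6%, 14.3% and 10.7% over 16 genes. V5 over input was flatter, with 23.6% in the first part, 32.2% in the middle part and 19.3% in the last. In V5 over empty vector the first part had 25.5%, the second and the middle part 27.6% each and the last 18.0%. The last part was the lowest in each list. Start codons were covered in 10 members and stop codons in 4 in V5 over input.

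Shared intervals were short and lay side by side. The 55 intervals in members, of 749 in all (7.34%), had a median of 12 nt and a range of 2 to 60 nt, and 25 were under 10 nt. The paper reports fewer peaks, in fewer genes, for its own intersection. The shared intervals here are thus not its published set and were not compared with it. In 49 of the 55 (89.1%) every base was CDS, and 4 touched the 3′ UTR. Another 2 lay off the canonical mRNA, in the longer RPLP0 exon described below, and are in no stretch. Joined on the spliced mRNA the other intervals formed 17 stretches with a median of 61 nt, from 7 nt in RPL12 to 128 nt. In 12 of the 14 genes there was 1 stretch only, and 11 of the 17 crossed an exon junction. RPL8 had 8 intervals in 107 nt at codons 70 to 106, RPS12 6 in 102 nt, and RPL37A 5 in 77 nt. RPL12 had 3 stretches, near the start (codons 12 to 19), at codons 37 to 39 and near the end (codons 137 to 157). The RPL13A interval lay in the 3′ UTR and the RPS28 stretch ran over the stop codon into it.

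**Figure D4:**
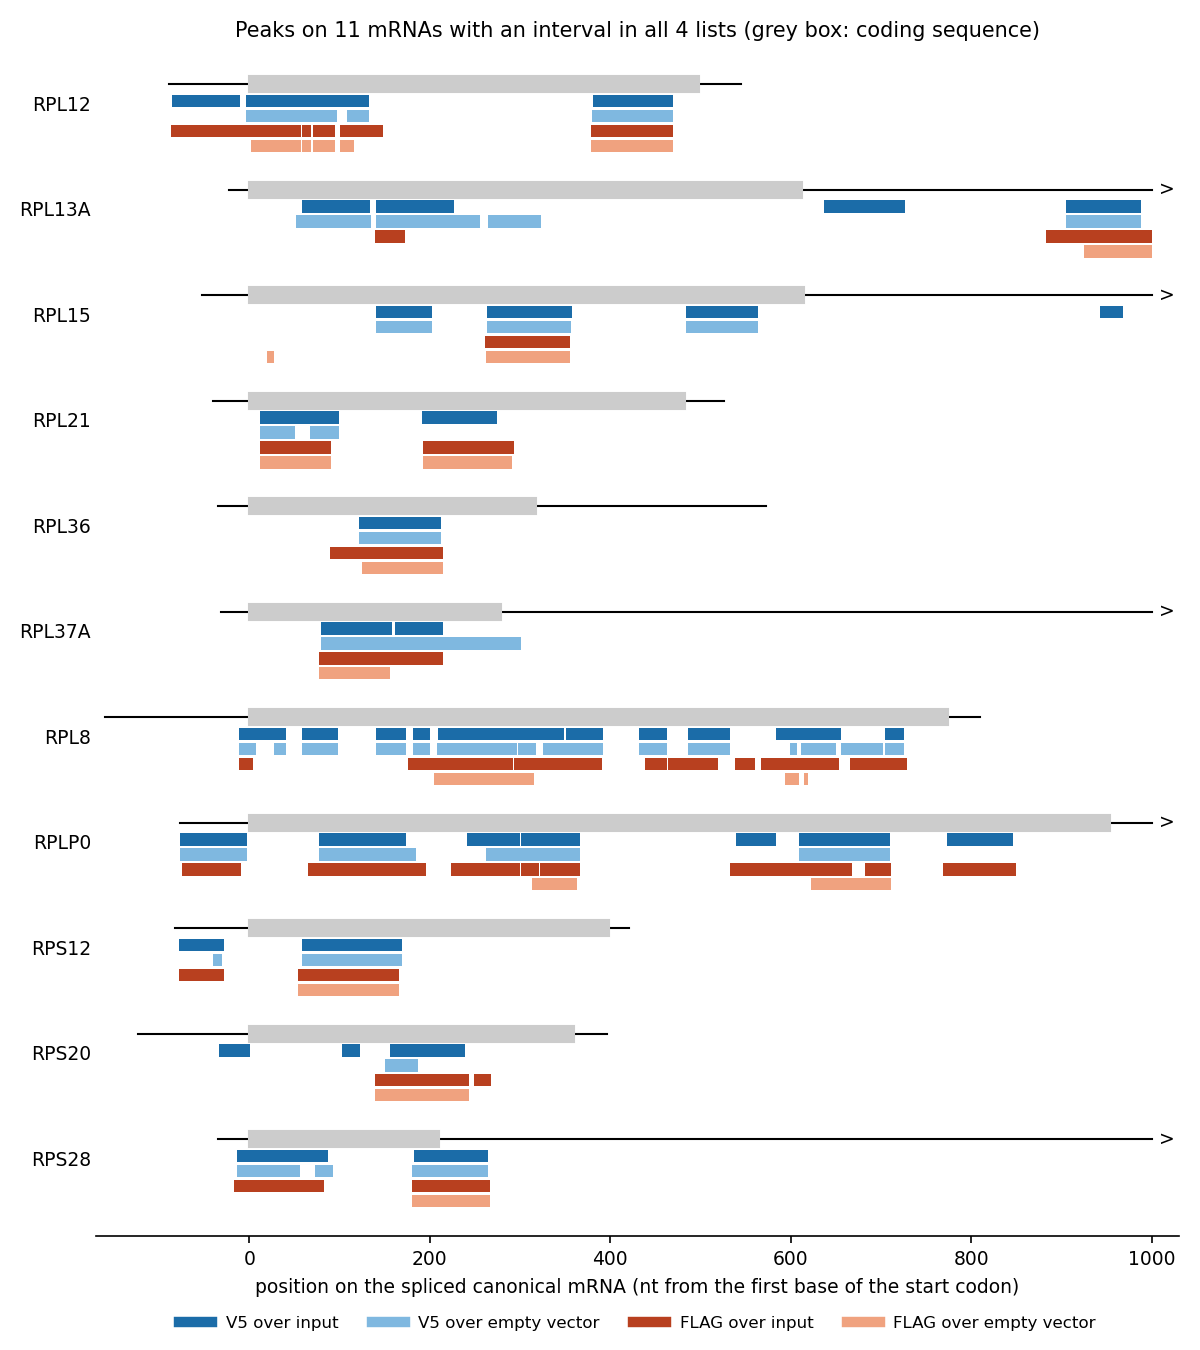
Coloured bars are the peaks of the 4 lists on the spliced canonical mRNAs of 11 of the 14 genes, with position in nt from the start codon, a grey box for the coding sequence and an arrowhead where the mRNA runs past the axis. Peaks covered 62.7% of the RPL8 and 46.1% of the RPLP0 coding sequence in V5 over input, and 16.8% and 14.6% in FLAG over empty vector. In RPS12, RPL37A and RPL8 the lists meet in 1 stretch each, of 102, 77 and 107 nt.

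RPLP0 held 1 site outside its canonical mRNA. In all 4 lists peaks ended at base 120200891 on chromosome 12, and began at 120200832 or 120200833 where the canonical exon stops at 120200831. The bases between are intron in the canonical transcript and exon in RPLP0-201 and RPLP0-218, protein-coding transcripts with a 60 nt longer exon (chr12:120200730-120200891, minus strand). Peaks covered 60 of the 60 nt in V5 over input, 48 in V5 over empty vector, 29 in FLAG over input and 59 in FLAG over empty vector. The highest log2 enrichment there was 5.39, 5.58, 4.79 and 3.78 in this order, where the CDS stretch at codons 208 to 217 gave 5.44, 5.41, 4.76 and 4.04. The first 30 nt of the longer exon, chr12:120200862-120200891, are given in lower case because its bases are absent from the canonical mRNA.
RPLP0 longer exon: gcccgggaccgcgggatgggtgtcggcgtg

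Member peaks were shorter and more broken up than others. Their median length was 23, 18, 18 and 14 nt in V5 over input, V5 over empty vector, FLAG over input and FLAG over empty vector, against 77, 78, 74 and 77 nt for other mRNAs. In the same order 72.4%, 64.0%, 80.8% and 82.0% of member peaks touched or overlapped another peak of the same gene and list, against 23.6%, 28.8%, 26.2% and 28.8%. Merged where they touched, member peaks had a median of 45, 39, 46 and 45 nt, against 84, 91, 83 and 89 nt. Members with a peak had a mean of 6.29, 5.83, 6.32 and 5.56 peaks per gene, against 2.38, 2.16, 2.44 and 1.94, and the gap was narrower after merging, for example 3.49 against 2.07 in V5 over input. A peak edge at a canonical exon edge was found in 35.3%, 35.98%, 31.6% and 33.7% of member peaks, against 11.6%, 14.3%, 12.9% and 13.9%. The median GC content of member peaks was 59.1% in V5 over input, against 60.7% for other mRNAs.

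The GU-loop:5nt-stem is the structure that the study modelled in its Cas9 sites, a GU whose U has a pairing probability under 0.7, followed by 5 paired bases (each over 0.5). All 7 bases had to lie in the peak. It was found in 13.8%, 13.0%, 11.5% and 12.4% of member peaks in the order of lists used above, against 41.3%, 39.4%, 39.3% and 39.9% of all peaks, and in 7 of 55 shared intervals (12.7%), against 36.6% of all. Peak length moved with these shares. Peaks and intervals were searched singly, with touching ones not merged, so one shorter than 7 nt could not hold a match. Of the shared intervals, the 38 member ones under 25 nt had a median of 6 nt, against 14 nt in others of that class. Among peaks of 50 nt or more in V5 over input the share was 34.7% (17 of 49) in members and 51.8% in other peaks. For those of 25 to 49 nt it was 20.7% and 23.3%, and for those under 25 nt 3.29% and 7.76%. In the class of 25 to 49 nt V5 over empty vector gave 17.5% and 22.9% and FLAG over input 21.7% and 22.6%. FLAG over empty vector went the other way there, with 42.1% (8 of 19) in members and 23.0% in other peaks. In the class of 50 nt or more the member share was the lower in all 4 lists, with 2 of 10 member peaks in FLAG over empty vector. Lengths still differed within the classes. In V5 over input the medians were 69 nt in members and 88 nt in other peaks of this class. Under 25 nt they were 9 and 15 nt. In that list 100 of 283 member peaks held no GU, against 413 of 6322 other peaks. In the intervals shared by all lists the 25 to 49 nt class gave 26.7% (4 of 15) in members and 27.9% in others.

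In the printed stretches the motif letters, searched as GT plus 5 bases on the sense strand only, can be placed. They are GTTTGCT at base 16 and GTGGGGC at base 66 of RPL15. In RPS12 GTGTGCT at base 91 and GTGCTTG at base 93 overlap. The pairing probability of the U was 0.21 for the first of the overlapping pair and 0.60 for the other, and 0.59 and 0.52 in RPL15. RPL37A held none in its 5 shared intervals, of which those of 2 and 6 nt were too short for a match. Its joined stretch was not searched as a whole. The RPLP0 longer exon held a match at chr12:120200866-120200872, in peaks of V5 over input and of both lists over empty vector, where the U had a pairing probability of 0.42 in V5 over input. A match is a property of the letters and of a predicted fold, not a measured contact.

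Many of these mRNAs are not unique in the genome. In the pooled mRNAs 38.5% of 30-nt words also occur elsewhere in hg38, and how reads that map to several places were treated is not given in the sources used here. The median share of such words was 60.5% in the 30 members without a peak (5.86% in RPS4Y2 to 95.4%), 33.7% in the 49 with one (6.48 to 100%) and 61.8% in the 14 with a shared interval. Among the 41 members with over 50% of such words, 22 (53.7%) had a peak in some list and 8 (19.5%) a shared interval. Among the other 38, 27 (71.1%) and 6 (15.8%) did. In FLAG over input the shares with a peak were 34.2% and 60.5%, and in V5 over empty vector they were 51.2% and 52.6%. All 30-nt words of RPL21 occur elsewhere, so the source of reads on it is uncertain. In the printed RPL37A, RPS12 and RPL15 stretches the share was 37.7%, 65.6% and 71.1%. Peaks on annotated ribosomal protein pseudogenes were few, at 13, 5, 10 and 6 in the 4 lists, on 8, 3, 7 and 4 of 1600 pseudogenes. The part of repeated sequence in these results was not tested.

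**Figure D5:**
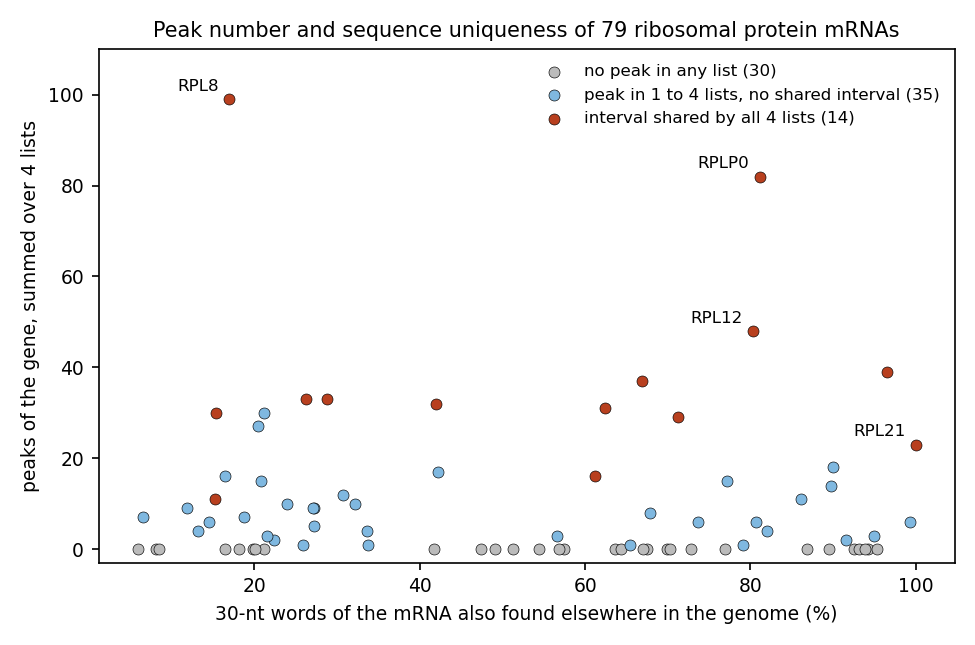
Each point is 1 of the 79 members, with the percentage of its 30-nt words that also occur elsewhere in the genome on the x axis and its peaks summed over the 4 lists on the y axis. Members with a shared interval range from 15.2% to 100% and include both RPL8 with 99 peaks at 16.9% and RPLP0 with 82 peaks at 81.1%.

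3 related gene lists were read beside the members, chosen like them with earlier results known. Among 11 ribosomal proteins or paralogs outside the naming rule, such as RACK1, a scaffold protein of the small subunit, 3, 3, 2 and 0 had a peak in the 4 lists, and 0 had a shared interval. Of 78 mitochondrial ribosomal proteins, which are encoded in the nucleus and work in mitochondria, 19 (24.4%), 6 (7.69%), 14 (18.0%) and 4 (5.13%) had a peak, and 2 (2.56%) had a shared interval, MRPL49 and MRPS5. Over all protein-coding genes the shares were 13.6%, 6.78%, 13.2% and 4.96%, and 2.07% for a shared interval. The mitochondrial shares over empty vector and for shared intervals were thus near those of all genes. Of 25 other mRNAs with a known TOP tract, 16 (64.0%), 13 (52.0%), 10 and 6 (24.0%) had a peak. A shared interval lay in 5 of the 25, in EEF1G, EIF3A, EIF4B, HNRNPA1 and NACA. EEF1G, a subunit of elongation factor 1, had 10 shared intervals and log2 maxima of 4.77, 5.53, 5.45 and 4.89. EEF2, the translocation factor, had 47, 39 and 33 peaks in the first 3 lists and 0 in FLAG over empty vector.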

How the data were processed

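eCLIP libraries of V5- and 3xFLAG-tagged dSpCas9, their size-matched inputs and empty vector IPs were grouped by the sample labels. The authors aligned reads to hg38 with their eCLIP pipeline, for which the submitters' processing notes name UMI-tools 1.0.0, cutadapt 1.14, STAR 2.4.0i and SAMtools 1.6, and merged the 2 replicates of each comparison by the Irreproducible Discovery Rate. The peak caller and its annotation are not given in the sources used here. For each peak the authors deposited a log2 enrichment of IP over control reads (3 or more) and a −log10 p-value (from 3.01 to a ceiling of 400). Depth and replicate values are unknown, so precision is unknown, and no p-value was computed.

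Peaks were assigned to GENCODE version 44 genes (exons of any transcript, 1 nt, same strand), and regions to canonical transcripts. Lists were intersected as V5 with V5, FLAG with FLAG, then V5 with FLAG, at 50% of the first interval. Folding used RNAplfold (ViennaRNA 2.7.2, window 70 nt, 50 nt of genomic flank). Words of 30 nt were counted over both strands of hg38. Shares have 95% Wilson intervals. Python 3.11.15, pandas 2.3.3 and SciPy 1.17.1 were used, and the steps were tested on simulated data. The genes named were each member with a shared interval, the 3 highest per list, the 3 with most peaks and those without a peak. Other genes were chosen after their values were seen, as were the joining distance, the sequences and the position summaries. Members and lists were chosen with earlier results of these data known. Alternatives changed thresholds, exon sets, overlap, peak merging, region rule, motif cutoffs and word length. RNA levels, editing and DNA binding were not analysed here, and 3 members that this rule names, and 1 sequence, are not reported here.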

Additional observations from a re-analysis of the deposited data

How the results depend on the processing

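No paired analysis was possible because each list has 1 value per peak for its merged replicates, and for the same reason no replicate could be left out. Of 160 values recomputed under the alternatives, 112 stayed within 1.5 times a count, the 95% Wilson interval of a share or 0.1 of a log2 median, and 48 moved. All gene and peak counts of the lists stayed with −log10 p of at least 5, 50% of a peak in exons, or canonical exons only. The shared set was not recomputed under these 3 alternatives. At a log2 of at least 4, genes with a peak fell to 17, 18, 19 and 10 in V5 over input, V5 over empty vector, FLAG over input and FLAG over empty vector (10, 12, 12 and 7 large subunit, 7, 6, 7 and 3 small subunit), to 28 in any list (11 small subunit), peaks to 86, 84, 96 and 27, and the shared set to 5 genes (among them RPL21, RPL37A, RPLP0 and RPS12) with 10 intervals. Merging touching peaks left 157, 142, 113 and 43 peaks. With 1 nt of overlap the shared intervals rose to 107 in the same 14 genes, and with 75% they fell to 34 in 12 genes (RPL13A was among those lost). By nucleotides the 5′ UTR share was 8.01% in V5 over input and 4.28% in V5 over empty vector, and the 3′ UTR share in V5 over input 8.20%, or 8.28% after merging. At a log2 of at least 4 the 3′ UTR share was 2.33% in V5 over input, 1.19% in V5 over empty vector and 3.70% in FLAG over empty vector, the 5′ UTR share in FLAG over input 5.21% and the CDS share in FLAG over empty vector 96.3%. Length-weighted means gave medians of 3.57, 3.54, 3.76 and 3.66 over the 4 lists, and −log10 p of at least 5 gave 3.84 and 3.99 in the V5 lists. The motif share was 6.36%, 7.11% and 6.84% in the first 3 lists with the U under 0.5, and 4.59%, 5.02% and 4.70% with stems over 0.7. With 50-nt words 25.6% of the mRNAs were not unique.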
